A study of Arabidopsis thaliana with 8 samples.

Results

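Transcripts were compared between sulfate-starved Arabidopsis thaliana seedlings given sulfate again for 3 h and seedlings that stayed starved, and those that starvation itself had left unchanged were set apart from those it had moved. The comparison takes 4 of the 8 Affymetrix ATH1 arrays of the series, 2 labelled 3 h S and 2 labelled -S, and pairs them within experiment 1 and experiment 2. The other 4 arrays, of seedlings in full nutrition medium (FN) and of seedlings 30 min after resupply (30' S), entered the estimate of the spread and are given beside the results.

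All seedlings were wild-type Col-0, grown as 100 to 120 seeds per flask in sterile liquid culture under constant light and harvested whole on day 9. The 3 h S seedlings had grown in medium with 150 µM sulfate, were moved to medium without added sulfate on day 7, starved for 48 h, then received 500 µM sulfate as potassium sulfate and were harvested 3 h later. The -S seedlings had the same history and were harvested after the 48 h of starvation, without resupply. The FN seedlings grew in 3 mM sulfate throughout, with a change of medium on day 7. The 3 h S cultures therefore differ from the -S cultures in sulfate, in the potassium that came with it, in the opening of the flask and in 3 h of further culture. Flasks that received potassium chloride are described in the study's methods but were not analysed here, so these differences cannot be told apart. The low sulfate medium was also lower in nitrate and ammonium than the FN medium. This bears on every value over FN, including which transcripts count below as changed or not changed by starvation. The 3 h S cultures also spent their further 3 h in that medium.

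Plants take up sulfate through membrane transporters, activate it to adenosine 5'-phosphosulfate (APS), reduce it to sulfide and build it into cysteine, from which methionine and glutathione are made. Brassicaceae also store sulfur in glucosinolates, defence compounds made from methionine (aliphatic glucosinolates) or tryptophan (indole glucosinolates) and broken down by beta-glucosidases. When sulfate is short, genes for uptake, reduction and recycling are raised and glucosinolate synthesis is lowered, so a return of sulfate is a test of how fast each of these programmes turns back.

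Signals are MAS version 5.0 intensities, linear and scaled per array, with a median between 41.9 and 47.6 on each array. The signal below which an array's probe sets were taken as not above background, its floor, was 17.2 and 13.1 on the 3 h S arrays (experiments 1 and 2) and 18.8 and 13.5 on the -S arrays. Of 22746 probe sets, 17138 reached the floor on at least 2 arrays and were tested. Each condition has n = 2, and that number limits the precision of every value. Fold changes below are log2 differences of signal + 16 from limma with the experiment as a block, given with their standard error (SE), and a probe set was called at a Benjamini-Hochberg adjusted p under 0.05. In whole seedlings, fewer cells of a type and less RNA per cell cannot be told apart. The root hair gene EXPA7 (69.8 and 150.9 in 3 h S, 60.8 and 97.2 in -S) and the leaf gene RCA, which encodes Rubisco activase (1044.6 and 1871.1 in 3 h S, 798.5 and 1820.1 in -S), were both above the floor on these arrays, so roots and green tissue were both represented. Of 15 markers on each list 2 could be tested, the others being EXPA18 and FAMA, and the changes ranged between 0.32 and 0.36 on the root list and between 0.21 and 0.60 on the shoot list. EXPA7 and RCA changed by 0.36 ± 0.17 and 0.21 ± 0.16 on the log2 scale (SE), and no member of either list was called.

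After 3 h of sulfate, 126 probe sets were higher (0.735% of those tested) and 56 were lower (0.327%) than in starved seedlings. The rises ran between 0.82 and 3.32 on the log2 scale with a median of 1.1, and the falls between -0.87 and -5.50 with a median of -1.87, against a median of -0.03 over all probe sets tested. In all 126 and all 56 the 3 h S signals did not overlap with the -S signals, as also held for 18% of tested probe sets above and 20.3% below. At an unadjusted p under 0.05 the shares were 8.02% higher and 5.79% lower. By deposited signals alone, with no offset and no model, 163 probe sets were past 2-fold higher in both experiments (0.717% of 22746) and 86 past 2-fold lower (0.378%). Of these, 92 and 51 were also called by limma.

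**Figure D1:**
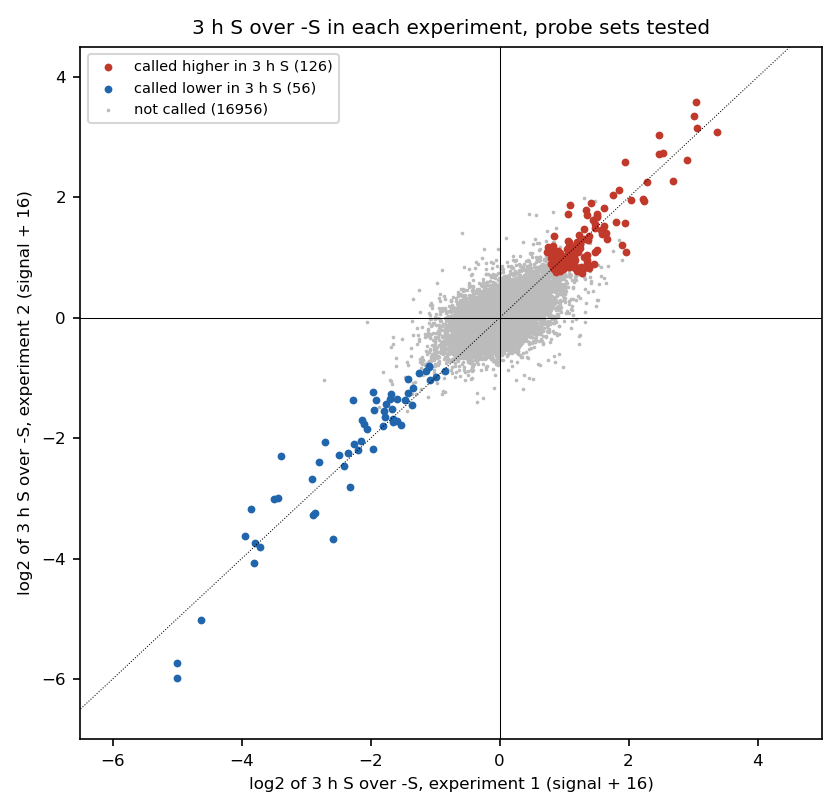
Log2 ratio of 3 h S over -S in experiment 1 (x axis) and experiment 2 (y axis), each on signal + 16, for the 17138 probe sets tested. The 126 probe sets called higher (red) and the 56 called lower (blue) lie near the dotted line of equal ratios, with the largest falls reaching below -5 and the largest rises above 3.

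Most calls were lost when a 3 h S or -S array was left out. Such a fit leaves 1 array in that group, so it cannot show whether a particular array drove the calls. Leaving out 1 FN array gave the same counts for this comparison as leaving out both, so those fits are not separate checks. Without -S replicate 1, -S replicate 2, 3 h S replicate 1 or 3 h S replicate 2, the numbers called higher were 5, 6, 6 and 3 and the numbers called lower 7, 7, 7 and 3, with the lone remaining array of that condition assumed to vary like the other groups. Without FN replicate 1 or FN replicate 2 the counts were 800 and 395, and without 30' S replicate 1 or 30' S replicate 2 they were 38 and 37. The 3 rises BCAT4, IPMI1 and CYP79B2 and the 3 falls BGLU28, BGLU30 and GGCT2;1 were called whichever of the 8 arrays was left out. Calls of all other genes named below were lost in at least 1 of the fits without a 3 h S or -S array.

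**Figure D2:**
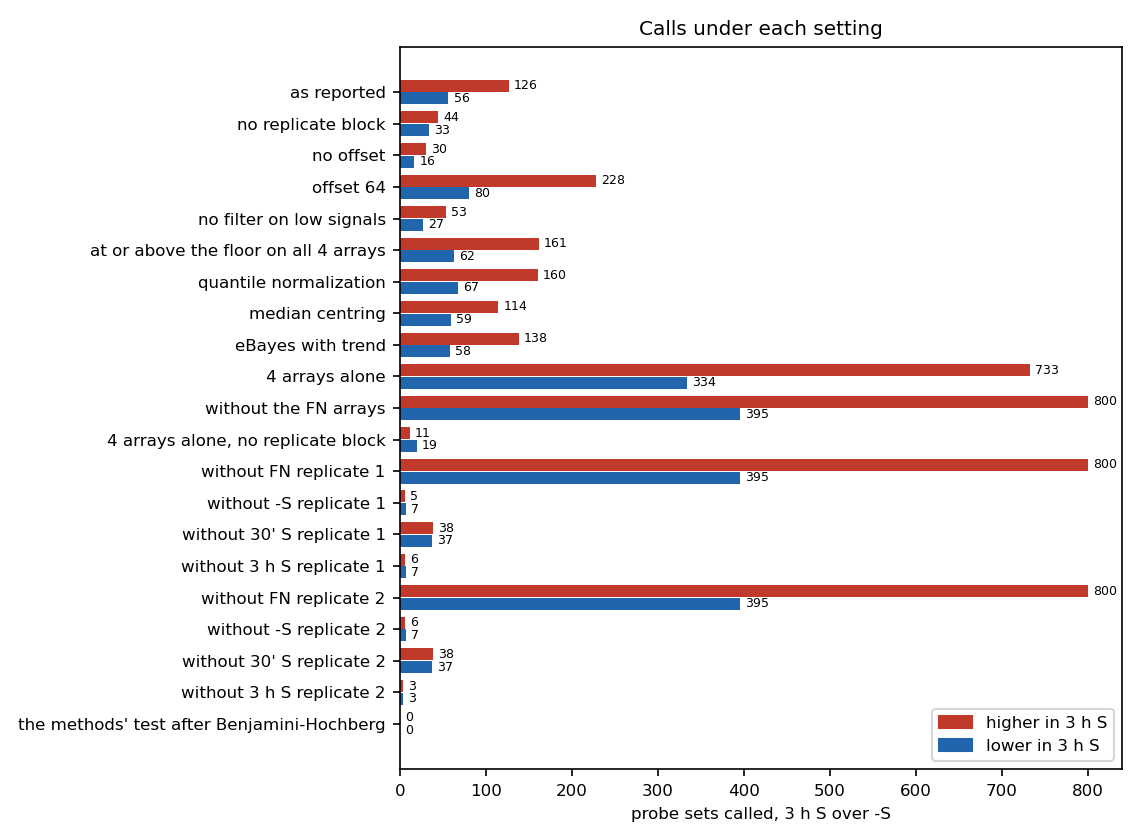
Number of probe sets called higher (red) and lower (blue) in 3 h S over -S under each setting, with the reported fit at the top. Leaving out any 1 of the 3 h S or -S arrays left 3 to 7 calls in each direction, and fits without the FN arrays made 800 and 395 calls.

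Transcripts for sulfate uptake and release from stores were lower after 3 h of sulfate. Of 7 tested members of the list, 5 were called lower and none higher, with a median of -1.60. SULTR1;2, a high-affinity transporter of the root surface, had signals of 346.9 and 294.7 in 3 h S seedlings, against 1653.3 and 1413.1 in -S seedlings. It fell by 2.2 on the log2 scale (SE 0.15, adjusted p = 0.002, limma) and still stood above its FN signals of 101.9 and 85.2. SULTR1;1, the second high-affinity uptake transporter, had 90.5 and 158.5 in 3 h S and 256.6 and 463.0 in -S, a change of -1.41 ± 0.17 (SE, adjusted p = 0.018, limma). Its experiments differed in level but not in direction, and its FN signals were 10.4 and 15.8. SULTR4;2, an exporter of vacuolar sulfate, had 66.0 and 78.4 in 3 h S and 554.9 and 479.0 in -S (-2.60 ± 0.22, adjusted p = 0.0042, limma). Its partner SULTR4;1 had 119.7 and 97.8 in 3 h S and 456.7 and 318.5 in -S (-1.68 ± 0.21, adjusted p = 0.019, limma). Both kept 3 h S signals above their FN signals within each experiment, with FN at 25.5 and 44.1 for SULTR4;2 and at 69.3 and 90.3 for SULTR4;1. SULTR2;1, a vascular transporter, had 268.9 and 166.1 in 3 h S and 951.7 and 477.1 in -S (-1.60 ± 0.24, adjusted p = 0.036, limma). SULTR2;2, which also serves the vascular tissue, had 58.2 and 74.1 in 3 h S and 182.8 and 218.9 in -S, and its change of -1.4 ± 0.26 did not pass (adjusted p = 0.071, limma). SULTR3;4 had 33.4 and 31.4 in 3 h S and 51.6 and 24.6 in -S, so that its groups overlapped (-0.11 ± 0.35, adjusted p = 0.92, limma). No member of this list was named by the platform annotation: all names came from the study's tables, several of which list genes by their rise under starvation on these same -S arrays. The direction of this count therefore has no independent support. None of the 5 calls remained when any 1 of the 3 h S or -S arrays was left out, and those of SULTR1;1 and SULTR2;1 were also lost without the experiment block.

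In the reductive pathway, the falls lay in the APS-forming and APS-reducing steps. The list of sulfate assimilation and cysteine synthesis had 4 of 7 tested members lower and none higher, with a median of -1.48. The platform annotation named 3 of the 7 (APS3, APS4 and SIR), of which 1, APS3, was called lower. The other names came from the study's tables, several of which list genes by their rise under starvation on these same -S arrays. The direction of this count therefore has little independent support. APS reductase makes sulfite from APS, and all 3 of its genes were lower. APR3 had 108.2 and 157.2 in 3 h S, against 1780.3 and 1557.2 in -S (-3.52 ± 0.37, adjusted p = 0.0089, limma). APR2 had 271.7 and 263.5 in 3 h S and 1266.9 and 1138.1 in -S (-2.10 ± 0.14, adjusted p = 0.002, limma). In both genes the 3 h S signals overlapped with the FN signals, which were 61.3 and 144.3 for APR3 and 333.5 and 253.2 for APR2. APR1 had 498.4 and 505.3 in 3 h S and 1752.1 and 1610.0 in -S (-1.71 ± 0.15, adjusted p = 0.0049, limma), and stayed above its FN signals of 297.2 and 325.8. APS3, an ATP sulfurylase, had 104.2 and 106.4 in 3 h S and 370.6 and 278.2 in -S (-1.48 ± 0.15, adjusted p = 0.0088, limma), and its FN signals were 99.8 and 96.2. APS4, another ATP sulfurylase, was not called. It had 111.9 and 97.9 in 3 h S and 124.7 and 122.2 in -S (-0.21 ± 0.13, adjusted p = 0.56, limma), while FN seedlings had 927.9 and 853.7, so at 3 h it was still 2.91 ± 0.13 below FN on the log2 scale (adjusted p = 0.0018, limma). Whether APS3 and APS4 differed in their response was not tested. Sulfite reductase (SIR, 552.0 and 464.1 in 3 h S, 429.8 and 435.9 in -S) and the serine acetyltransferase SERAT2;1 (238.3 and 253.7 in 3 h S, 338.6 and 323.5 in -S) were not called. Of the 4 calls in this list, none remained without any 1 of the 3 h S or -S arrays.

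The largest falls were in genes known as markers of sulfur starvation or of its signal, O-acetylserine. On that list 8 of 9 tested members were lower, with a median of -3.76. BGLU28, a beta-glucosidase linked to glucosinolate breakdown, had signals of 86.0 and 25 in 3 h S, against 3271.6 and 2593.9 in -S. It fell by 5.50 on the log2 scale (SE 0.27, adjusted p = 0.00095, limma), the largest change in either direction, and its FN signals were 9.0 and 4.7. BGLU30 (DIN2), a related beta-glucosidase, had 76.8 and 22.2 in 3 h S and 2953.5 and 2014.5 in -S (-5.37 ± 0.28, adjusted p = 0.0011, limma). In both genes the 3 h S signal of experiment 1 was over 3 times that of experiment 2, a gap small beside the difference between conditions. GGCT2;1, a gamma-glutamyl cyclotransferase that degrades glutathione, had 97.2 and 48.4 in 3 h S and 2799.1 and 2064.5 in -S (-4.82 ± 0.15, adjusted p = 0.00011, limma). SDI1 (SULPHUR DEFICIENCY-INDUCED 1), which holds back aliphatic glucosinolate synthesis, had 258.9 and 157.8 in 3 h S and 3847.1 and 2911.9 in -S (-3.94 ± 0.35, adjusted p = 0.0048, limma), and stayed above its FN signals of 4.7 and 18.0. SDI2, its relative, had 83.2 and 82.7 in 3 h S and 1056.4 and 774.4 in -S (-3.22 ± 0.21, adjusted p = 0.0017, limma), level with its FN signals of 60.2 and 81.3. So the 2 relatives ended at different places against FN: SDI1 was 3.04 ± 0.35 above FN on the log2 scale, and SDI2 0.20 ± 0.21 above it (adjusted p = 0.026 and 0.62, limma); the difference between them was not tested.

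Among the RESPONSE TO LOW SULFUR genes, LSU1 had 182.0 and 203.2 in 3 h S and 2223.2 and 1746.2 in -S (-3.25 ± 0.29, adjusted p = 0.0047, limma). LSU2 had 340.1 and 191.8 in 3 h S and 2578.9 and 1962.3 in -S (-3.06 ± 0.29, adjusted p = 0.006, limma). LSU4, with 41.7 and 33.3 in 3 h S and 97.7 and 62.2 in -S, was the 1 tested member of this list that was not called (-0.82 ± 0.22, adjusted p = 0.16, limma). SHM7, a serine hydroxymethyltransferase, had 42.3 and 100.6 in 3 h S and 752.7 and 1615.7 in -S (-3.76 ± 0.47, adjusted p = 0.019, limma), with experiment 2 the higher in both conditions. All 8 falls of the list kept their sign in every alternative, which is favoured in called genes, whose 3 h S and -S signals did not overlap. Only SDI2 and BGLU28 were named by the platform annotation, both called lower, and the call of SHM7 was lost without the experiment block; the other names came through the study's tables of starvation-raised genes.

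**Figure D3:**
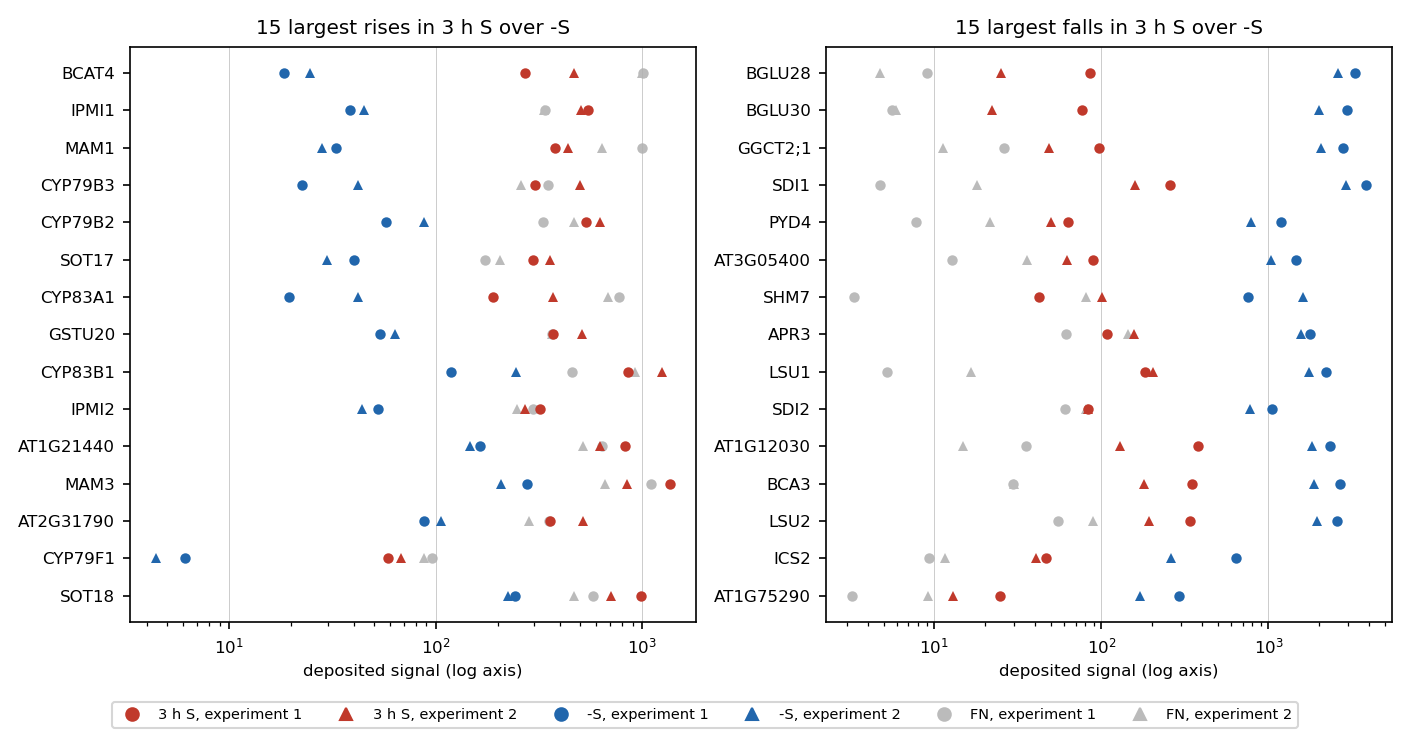
Deposited signals (x axis, log scale) of the 15 largest rises (left) and the 15 largest falls (right) with 1 gene each, in 3 h S (red), -S (blue) and FN (grey); circles are experiment 1 and triangles experiment 2. In every row both 3 h S points lie on the same side of both -S points, and for most falls the 3 h S points remain to the right of FN.

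Of the other genes among the 15 largest falls, AT3G05400, listed by the study as a putative sugar transporter, had 89.6 and 62.1 in 3 h S and 1453.9 and 1031.5 in -S (-3.77 ± 0.38). PYD4 (PYRIMIDINE 4), named for pyrimidine breakdown, had 62.7 and 49.6 in 3 h S and 1193.9 and 791.0 in -S (-3.78 ± 0.31), and BCA3, a beta carbonic anhydrase, had 346.5 and 178.7 in 3 h S and 2670.0 and 1879.3 in -S (-3.09 ± 0.22). In these 3 genes the signals 30 min after resupply were still 1591.3 and 807.7 (AT3G05400), 899.5 and 552.9 (PYD4) and 2367.8 and 1642.6 (BCA3), closer to the starved level than to that at 3 h. AT1G12030, which the study lists as a hypothetical protein, had 377.2 and 128.6 in 3 h S and 2335.0 and 1823.4 in -S (-3.12 ± 0.25). It had reached 433.0 and 260.0 by 30 min, so most of its fall had come by then. ICS2 (isochorismate synthase 2), of the pathway that gives salicylic acid, had 46.3 and 40.4 in 3 h S and 635.1 and 259.9 in -S (-2.84 ± 0.30). The adjusted p of these 5 genes lay between 0.002 and 0.0089 (limma). AT1G12030 lost its call without 3 h S replicate 2 and without -S replicate 2, BCA3 was called without 3 h S replicate 1 and in no other of those 4 fits, and ICS2 without -S replicate 2 and in no other; AT3G05400 and PYD4 were called in none of them. The call of AT1G12030 was also lost without the experiment block.

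Falls reached into methionine, glutathione, glucosinolate breakdown, polyamine and redox genes, each through 1 or 2 named members. MGL, methionine gamma-lyase, which breaks methionine down, had 48.6 and 55.1 in 3 h S and 296.6 and 167.5 in -S (-1.82 ± 0.27, adjusted p = 0.036, limma). It was the 1 called member of 6 tested in the methionine list, whose median was 0.12. GGCT2;2, of the same glutathione-degrading family as GGCT2;1, had 340.2 and 563.5 in 3 h S and 1378.1 and 1344.8 in -S (-1.60 ± 0.19, adjusted p = 0.014, limma). Glutathione reductase GR1, the other tested member of that list, had 669.3 and 606.2 in 3 h S and 602.3 and 479.6 in -S (0.24 ± 0.16, adjusted p = 0.59, limma). NSP5, a nitrile specifier protein that steers glucosinolate breakdown, had 515.0 and 488.8 in 3 h S and 2519.7 and 2150.8 in -S (-2.18 ± 0.34, adjusted p = 0.042, limma), and the nitrilase NIT3 had 281.8 and 309.7 in 3 h S and 924.7 and 1060.8 in -S (-1.69 ± 0.19, adjusted p = 0.01, limma). These were both of the tested members of the breakdown list, and at 3 h both were above FN, in which NSP5 had 150.7 and 372.3 and NIT3 162.3 and 207.6. Both names came from the study's tables, so the direction of this count has no independent support either. ADC2, an arginine decarboxylase of polyamine synthesis, had 803.7 and 854.7 in 3 h S and 2596.3 and 2484.3 in -S (-1.60 ± 0.25, adjusted p = 0.042, limma), still far above its FN signals of 83.4 and 164.2. MSRB5, a methionine sulfoxide reductase, had 1346.0 and 1264.2 in 3 h S and 2902.9 and 2240.8 in -S (-0.96 ± 0.14, adjusted p = 0.036, limma). DHAR2, a dehydroascorbate reductase, had 441.5 and 450.0 in 3 h S and 809.2 and 845.0 in -S (-0.87 ± 0.14, adjusted p = 0.044, limma). All 7 of these calls were lost without any 1 of the 3 h S or -S arrays, and those of MGL, GGCT2;2 and NSP5 also without the experiment block.

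Among genes that share a stretch of chromosome, DHAR2 (AT1G75270), AT1G75280 and AT1G75290 are 3 consecutive genes and were all lower, at -0.87, -1.65 and -2.80 on the log2 scale. AT1G75290, which the study lists as a putative NADPH oxidoreductase, had 24.6 and 12.9 in 3 h S and 289.6 and 169.9 in -S, and AT1G75280 had 1158.3 and 853.9 in 3 h S and 3508.8 and 2842.5 in -S. SHM7 (AT1G36370) and its neighbour AT1G36380 formed a second pair, the neighbour with 134.3 and 117.2 in 3 h S and 387.3 and 253.1 in -S (-1.22 ± 0.15, adjusted p = 0.019, limma). MAM1 and MAM3, also neighbours, were both higher. No other called genes that could be named lay next to each other in RefSeq's gene order.

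Further falls lay in transport and detoxification. AT3G56200, listed by the study as an amino acid transporter of the membrane, had 247.2 and 116.4 in 3 h S and 1297.7 and 910.7 in -S (-2.56 ± 0.25, adjusted p = 0.0069, limma). SIP1;2, a small basic intrinsic protein of the aquaporin family, had 44.2 and 29.1 in 3 h S and 304.3 and 232.1 in -S (-2.44 ± 0.14, adjusted p = 0.0012, limma). GSTU27, a glutathione transferase, had 302.8 and 251.2 in 3 h S and 1099.2 and 908.7 in -S (-1.80 ± 0.14, adjusted p = 0.0036, limma), below its FN signals of 463.6 and 321.6. AT5G40670, for which no product is given here, had 299.9 and 297.9 in 3 h S, 1602.0 and 1468.2 in -S and 310.7 and 310.2 in FN, so that in both experiments 3 h S lay just below FN (-2.30 ± 0.13, adjusted p = 0.0012, limma). AT4G33960, the 1 called gene that the study's text counts among transcription factors (as MADS), had 55.8 and 95.6 in 3 h S and 283.9 and 386.8 in -S (-1.96 ± 0.14, adjusted p = 0.002, limma). The study's table describes the same locus as an expressed protein, so its class is uncertain. AT1G03020, listed as a putative glutaredoxin, had 10.1 and 9.5 in 3 h S, below the floor on both arrays, and 59.4 and 72.0 in -S. Its signal was thus at least 4.36-fold lower, with the floor in place of the 3 h S signals (adjusted p = 0.011, limma).

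The rises were led by glucosinolate synthesis. Of 15 tested members of the aliphatic list 13 were higher and none lower, with a median of 2.09, and of 4 tested members of the indole list 3 were higher, with a median of 2.62. Of the 15 largest rises 13 were members of these 2 lists. The other 2 carry only locus codes here: AT1G21440 had 824.4 and 623.1 in 3 h S and 164.5 and 146.6 in -S (2.1 ± 0.14), and AT2G31790 had 355.4 and 515.9 in 3 h S and 87.3 and 106.0 in -S (1.99 ± 0.21). In chain elongation of methionine, BCAT4, the aminotransferase of the first step, had 269.7 and 469.5 in 3 h S, against 18.5 and 24.5 in -S (3.32 ± 0.20, adjusted p = 0.0014, limma). Its FN signals were 1002.8 and 995.5, so it had returned part of the way. IPMI1, an isopropylmalate isomerase subunit, had 546.5 and 502.9 in 3 h S and 38.4 and 44.8 in -S (3.23 ± 0.14, adjusted p = 0.00074, limma), past its FN signals of 336.1 and 335.0. MAM1, a methylthioalkylmalate synthase, had 379.5 and 434.6 in 3 h S and 33.0 and 28.0 in -S (3.18 ± 0.26, adjusted p = 0.0041, limma), below its FN signals of 994.3 and 639.3. MAM3 had 1365.7 and 840.7 in 3 h S and 277.7 and 206.1 in -S (2.09 ± 0.17). IPMI2 had 319.4 and 271.2 in 3 h S and 52.6 and 43.8 in -S (2.28 ± 0.14). BCAT3, which acts on both leucine and chain-elongated methionine, had 527.5 and 531.2 in 3 h S and 228.9 and 253.9 in -S (1.08 ± 0.14). Its FN signals of 371.4 and 372.0 put it among the genes that starvation had not changed by the rule given below. The adjusted p of MAM3, IPMI2 and BCAT3 lay between 0.0017 and 0.019 (limma).

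In the core pathway that turns amino acids into glucosinolates, CYP83A1, which oxidises aliphatic aldoximes, had 188.2 and 367.9 in 3 h S, against 19.4 and 41.8 in -S (2.63 ± 0.27, adjusted p = 0.0075, limma). It remained below its FN signals of 768.6 and 681.7. CYP79F1, which makes aldoximes from elongated methionine, had 58.4 and 67.6 in 3 h S and 6.1 and 4.4 in -S, below the floor on both starved arrays, so its signal was at least 3.94-fold higher (adjusted p = 0.0042, limma). Its probe set is of the kind that may also detect a closely related gene. CYP79B2, which converts tryptophan to indole-3-acetaldoxime, had 533.6 and 621.0 in 3 h S, against 57.5 and 87.8 in -S (2.76 ± 0.15, adjusted p = 0.0012, limma). CYP79B3, which catalyses the same step, had 303.8 and 497.7 in 3 h S, against 22.5 and 41.8 in -S (3.1 ± 0.29, adjusted p = 0.0054, limma). CYP83B1, the next enzyme of the indole branch, had 853.2 and 1247.6 in 3 h S and 118.5 and 245.1 in -S (2.48 ± 0.20, adjusted p = 0.0041, limma). In FN, CYP79B2 had 330.9 and 465.5, CYP79B3 347.5 and 258.4 and CYP83B1 454.2 and 926.4. The 3 h S signals of CYP79B2 lay above FN and those of the other two overlapped with it, and none passed the test against FN (adjusted p between 0.16 and 0.52, limma). CYP83B1 lost its call over -S without the experiment block.

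Later steps rose as well. GSTU20, a glutathione transferase, had 369.6 and 510.9 in 3 h S and 53.4 and 63.5 in -S (2.60 ± 0.16, adjusted p = 0.0014, limma). SUR1, the C-S lyase shared by both branches, had 443.2 and 449.0 in 3 h S and 138.6 and 152.3 in -S (1.52 ± 0.14, adjusted p = 0.0054, limma). Of the sulfotransferases that add the final sulfate group, SOT17 had 295.8 and 358.2 in 3 h S and 40.3 and 29.8 in -S (2.75 ± 0.18), and SOT18 had 981.4 and 704.9 in 3 h S and 243.2 and 224.6 in -S (1.76 ± 0.16). Both aliphatic sulfotransferases were called (adjusted p = 0.0017 and 0.0048, limma). SOT16, which prefers indole substrates, had 475.6 and 767.2 in 3 h S and 301.1 and 371.9 in -S (0.82 ± 0.20, adjusted p = 0.13, limma), and differences among the 3 were not tested. FMO GS-OX1, which oxidises aliphatic side chains, had 32.1 and 61.7 in 3 h S and 1.7 and 9.1 in -S, below the floor on both starved arrays, and was at least 2.79-fold higher (adjusted p = 0.0089, limma), a call lost without the experiment block. UGT74B1, a glucosyltransferase of the pathway, had 631.2 and 766.7 in 3 h S and 373.7 and 348.7 in -S and missed the threshold (0.92 ± 0.16, adjusted p = 0.054, limma). FMO GS-OX2, the other member not called, had 20.0 and 25.8 in 3 h S and 16.9 and 19.1 in -S (0.19 ± 0.26, adjusted p = 0.8, limma). BCAT4 and IPMI1 on the aliphatic list and CYP79B2 on the indole list were called in each fit that left out a 3 h S or -S array; GSTU20 and SOT17 lost the call only without 3 h S replicate 2. The platform annotation named 3 of the 15 aliphatic members (BCAT4, GSTU20 and UGT74B1; 2 of the 3 were called), and the study's tables the others and all 4 of the indole members. Those tables were partly chosen on these arrays for a change under starvation, so neither count is independent evidence of its direction.

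Among the transcription factors of the pathway none of 7 tested members was called by limma, with 2 at an unadjusted p under 0.05 and none by the methods' test after adjustment. MYB34, an activator of indole genes, had 249.6 and 240.3 in 3 h S and 91.5 and 144.9 in -S (0.99 ± 0.20, adjusted p = 0.081, limma). MYB29, an activator of aliphatic genes, had 25 and 35.9 in 3 h S and 8.3 and 10.1 in -S, below the floor on both starved arrays, and was at least 1.88-fold higher (adjusted p = 0.08, limma). The groups did not overlap in either gene, as also held for 18% of all tested probe sets with 3 h S above -S. MYB28, the other main aliphatic activator, had 175.3 and 187.6 in 3 h S and 195.7 and 238.0 in -S (-0.23 ± 0.23, adjusted p = 0.72, limma), and MYB51 had 28.5 and 38.7 in 3 h S and 47.1 and 23.7 in -S (-0.02 ± 0.24, adjusted p = 0.98, limma). SLIM1, the regulator of the sulfur starvation response, had 36.2 and 49.6 in 3 h S and 41.1 and 47.5 in -S (-0.04 ± 0.28, adjusted p = 0.97, limma).

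The calls were split by what starvation had done to the same probe set. It counted as not changed by starvation where it was not called in -S over FN and that its -S signal was between 0.5 and 2 times its FN signal in both experiments, which held for 80.5% of all probe sets tested, so the shares below are to be read against that. Of the 126 probe sets higher at 3 h, 84 (66.7%) met it, 35 (27.8%) had been called lower in starvation, 7 were not called but outside that range, and 0 had been called higher. Of the 56 lower at 3 h, 4 (7.14%) met it, 50 (89.3%) had been called higher in starvation, and 2 were not called but outside the range. In -S over FN, 150 probe sets were called higher (0.875%) and 93 lower (0.543%), and in 3 h S over FN, 71 higher (0.414%) and 25 lower (0.146%). The share of rises not changed by starvation moved with the setting: 18 of 44 rises met the rule without the experiment block, 9 of 30 without an offset, 10 of 38 without 30' S replicate 1 or 30' S replicate 2, and 0 of 11 with the 4 arrays alone and no block. Both comparisons rest on the same -S arrays, so a chance deviation of those arrays moves both, in opposite directions.

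The 84 rises without a change in starvation lay between 0.82 and 1.55 on the log2 scale with a median of 1.01, against a median of 1.72 and a range of 0.87 to 3.32 in the 35 that starvation had lowered. Their 3 h S over -S ratios were between 1.71 and 4.83 in experiment 1 (median 2.4) and between 1.7 and 4.19 in experiment 2 (median 2.27). Their median signal was 202 and 176 in 3 h S, 74.1 and 77.5 in -S and 94.7 and 94.1 in FN, with 97.8 and 89.0 at 30 min. These medians were highest at 3 h, which the choice of probe sets that were higher at 3 h favours. At 30 min 68 of the 84 were above -S, by a median of 0.13 on the log2 scale, against -0.01 over all probe sets tested. That count uses the same -S arrays as the choice, which favours it. Whether the rise had begun by 30 min was not tested. Over FN, 9 of the 84 were called higher at 3 h, against 0.414% of all probe sets tested. The choice by the same 3 h S arrays favours that count too. As log2 values in the fit, the same 84 had medians of -0.24 in -S over FN (range -0.82 to 0.05), 0.13 in 30' S over -S, 1.01 in 3 h S over -S and 0.74 in 3 h S over FN, the last with a range of 0.10 to 1.4. The range in -S over FN lay mostly below 0, and some members were just short of a call there, such as AT5G67150 (-0.71 ± 0.13, adjusted p = 0.056, limma). The 35 starvation-lowered rises had a median of 0.20 in 3 h S over FN, with a range of -1.45 to 0.75.

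The identities of these transcripts are known here only in part. Of the 84 probe sets 55 named 1 gene (54 distinct genes), 1 several and 28 none, and of the 55 only 4 carried a symbol beyond the locus code: TAAC, BCAT3, YAO and PPR596. TAAC, named as a thylakoid carrier of adenine nucleotides, had 153.8 and 173.9 in 3 h S, against 52.8 and 60.4 in -S and 96.3 and 104.1 in FN (1.31 ± 0.13, adjusted p = 0.007, limma). YAO (YAOZHE), a nucleolar protein needed for gamete development, had 167.4 and 175.7 in 3 h S, against 68.9 and 76.6 in -S and 87.4 and 90.5 in FN (1.08 ± 0.13, adjusted p = 0.016, limma). PPR596, a pentatricopeptide repeat protein, a family that acts on organelle RNA, had 238.6 and 177.4 in 3 h S, against 105.6 and 81.4 in -S and 146.9 and 110.5 in FN (1.03 ± 0.15, adjusted p = 0.034, limma). In each of the 3 genes both 3 h S signals exceeded all FN and -S signals. Over FN this held for 79 of the 84, and the choice of probe sets by the same 3 h S arrays favours it. AT1G79150 was detected by 2 probe sets, and both were higher by 0.99 (SE 0.14 and 0.16): 125.2 and 144.1 in 3 h S against 59.8 and 59.9 in -S on the first, and 78.6 and 84.8 against 32.1 and 34.4 on the second.

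The 10 largest of these rises with 1 gene were AT3G57490, AT2G18900, AT3G22660, AT3G10530, AT3G18600, AT5G62440, TAAC, AT4G04940, AT2G32220 and AT5G67150, for 9 of which neither the files nor the tables used here give a product. AT3G57490 had 400.6 and 347.3 in 3 h S, against 96.2 and 141.6 in -S and 180.2 and 191.9 in FN (1.55 ± 0.18). AT2G18900 had 133.2 and 123.1 in 3 h S, against 33.1 and 34.6 in -S and 40.0 and 43.5 in FN (1.53 ± 0.13). AT3G22660 had 192.4 and 158.2 in 3 h S, against 58.4 and 46.2 in -S and 64.8 and 77.5 in FN (1.49 ± 0.18). All 3 had 3 h S signals above every other array, which their choice as rises at 3 h favours. In AT2G18900 the FN, -S and 30' S signals all lay between 33.1 and 46.9. AT3G10530 had 157.7 and 177.7 in 3 h S, against 67.3 and 42.4 in -S and 70.1 and 56.4 in FN (1.39 ± 0.18). AT3G18600 had 529.6 and 443.1 in 3 h S, against 204.2 and 149.5 in -S and 226.7 and 191.3 in FN (1.39 ± 0.14), and at 30 min it was still at 179.8 and 159.0. AT5G62440 had 216.6 and 200.4 in 3 h S, against 73.9 and 72.5 in -S and 117.6 and 131.4 in FN (1.33 ± 0.14). AT4G04940, with 102.5 and 114.9 in 3 h S and 34.6 and 34.6 in -S (1.3 ± 0.14), had gone no higher than 36.4 and 29.5 at 30 min. AT2G32220 had 172.5 and 158.2 in 3 h S and 51.4 and 66.0 in -S (1.29 ± 0.15), and AT5G67150 had 142.7 and 123.0 in 3 h S and 50.7 and 43.7 in -S (1.23 ± 0.13). Adjusted p ranged between 0.0047 and 0.021 over the 10 (limma). None of these 10 calls, and none of the 84, remained when any 1 of the 3 h S or -S arrays was left out, and of the 10, 6 remained without either of the 30' S arrays. Without the experiment block 9 of the 10 remained, all but AT3G10530, and 17 of the 84.

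**Figure D4:**
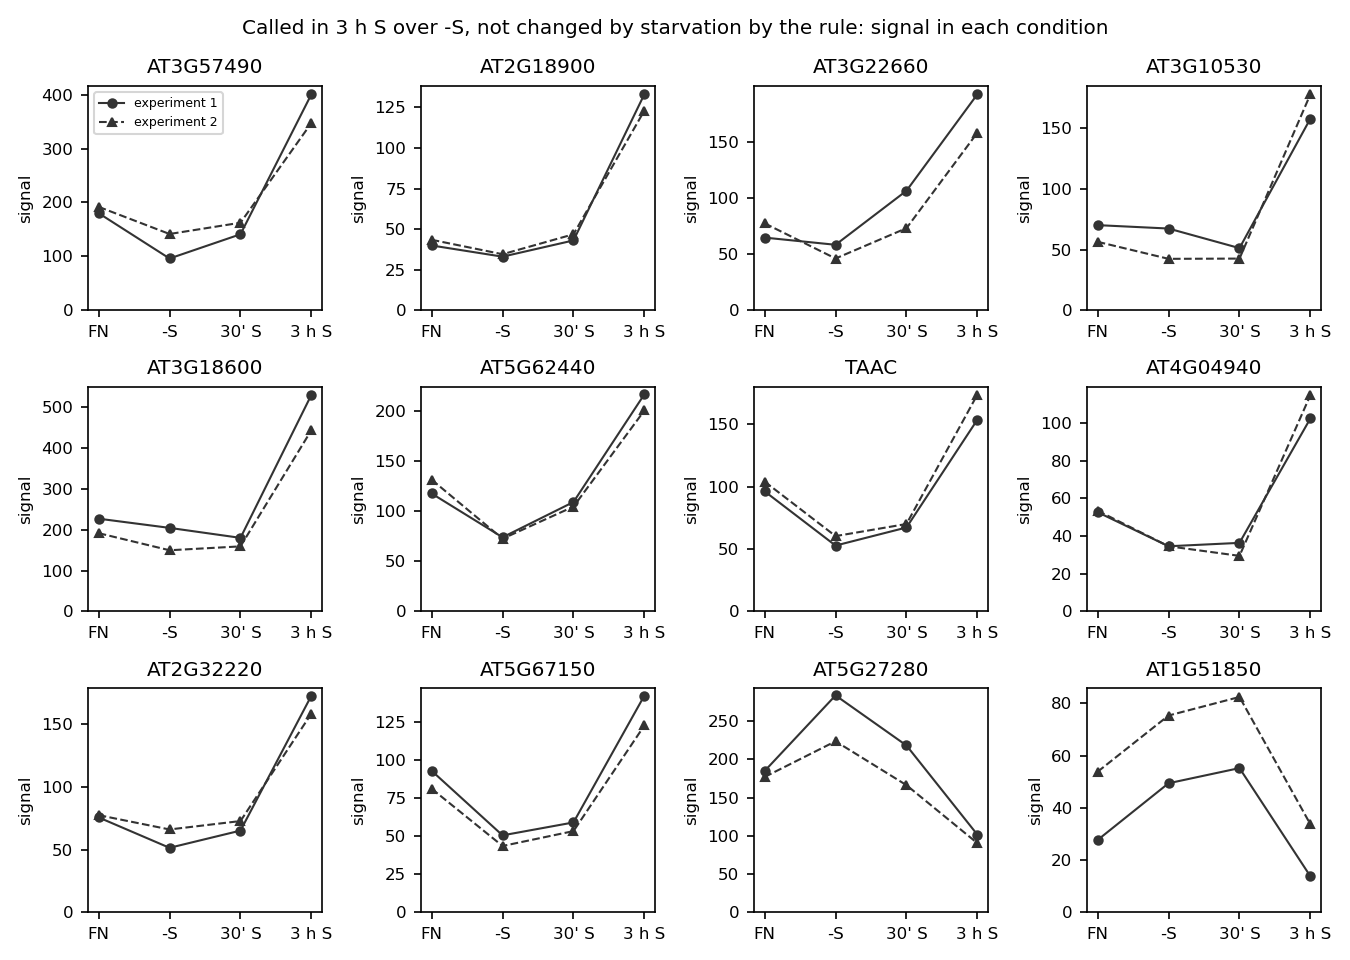
Deposited signal (y axis, starting at 0) in FN, -S, 30' S and 3 h S for the 10 largest rises and the 2 named falls among probe sets that starvation did not change by the rule; solid lines with circles are experiment 1 and broken lines with triangles experiment 2. In the 10 rises both 3 h S signals lie above all other signals of the same gene, and in the 2 falls both lie below the -S and 30' S signals. The choice of these genes by their 3 h S and -S signals favours both patterns.

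Beside these, the list of nucleolar and ribosome assembly genes showed small positive values. All 4 tested members were positive with a median of 0.88, against 7885 of 17138 positive and a median of -0.03 over all probe sets tested. None was called by limma, and none by the methods' test after adjustment. At an unadjusted p under 0.05 (limma) 4 were higher, against 8.02% of all probe sets tested. The platform annotation named 2 of the 4. PES (PESCADILLO), which acts in assembly of the large ribosomal subunit, had 519.1 and 643.2 in 3 h S and 272.8 and 350.8 in -S (0.87 ± 0.16, adjusted p = 0.062, limma). NRPA2, the second largest subunit of RNA polymerase I, had 395.7 and 269.8 in 3 h S and 220.7 and 155.7 in -S (0.77 ± 0.13, adjusted p = 0.056, limma). NSN1, a nucleolar GTP-binding protein, had 61.5 and 120.8 in 3 h S and 27.5 and 55.7 in -S (0.88 ± 0.34, adjusted p = 0.33, limma), and the nucleolin gene NUC2 had 61.6 and 17.8 in 3 h S and 10.1 and 4.8 in -S, below the floor on both starved arrays (at least 2.08-fold higher, adjusted p = 0.14, limma). In NUC2 most of the rise was in experiment 1. Of the 28 genes on this list 4 had a probe set that could be named, so most of it was not measured here.

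Falls without a change in starvation were few and weak. The 4 probe sets were AT5G27280, AT1G51850 and 2 with no single gene. AT5G27280 had 101.6 and 90.5 in 3 h S, against 283.8 and 223.8 in -S and 184.9 and 177.1 in FN (-1.26 ± 0.14, adjusted p = 0.013, limma). AT1G51850 had 13.8 and 33.7 in 3 h S, against 49.4 and 75.3 in -S and 27.7 and 53.8 in FN (-1.01 ± 0.14, adjusted p = 0.031, limma). Both were below FN in each experiment at 3 h, although the 3 h S and FN signals of AT1G51850 overlapped across experiments and it was under the floor on 1 of the 3 h S arrays. Neither call remained without the experiment block or without any 1 of the 3 h S or -S arrays. Of the 2 falls that were not called in starvation but lay outside the range, AT2G15830 had 7.5 and 22.4 in 3 h S, against 46.9 and 75.2 in -S and 21.3 and 49.3 in FN (-1.33 ± 0.15), and AT2G27830 had 46.7 and 56.8 in 3 h S, 118.2 and 110.6 in -S and 51.8 and 59.2 in FN (-0.95 ± 0.15).

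**Figure D5:**
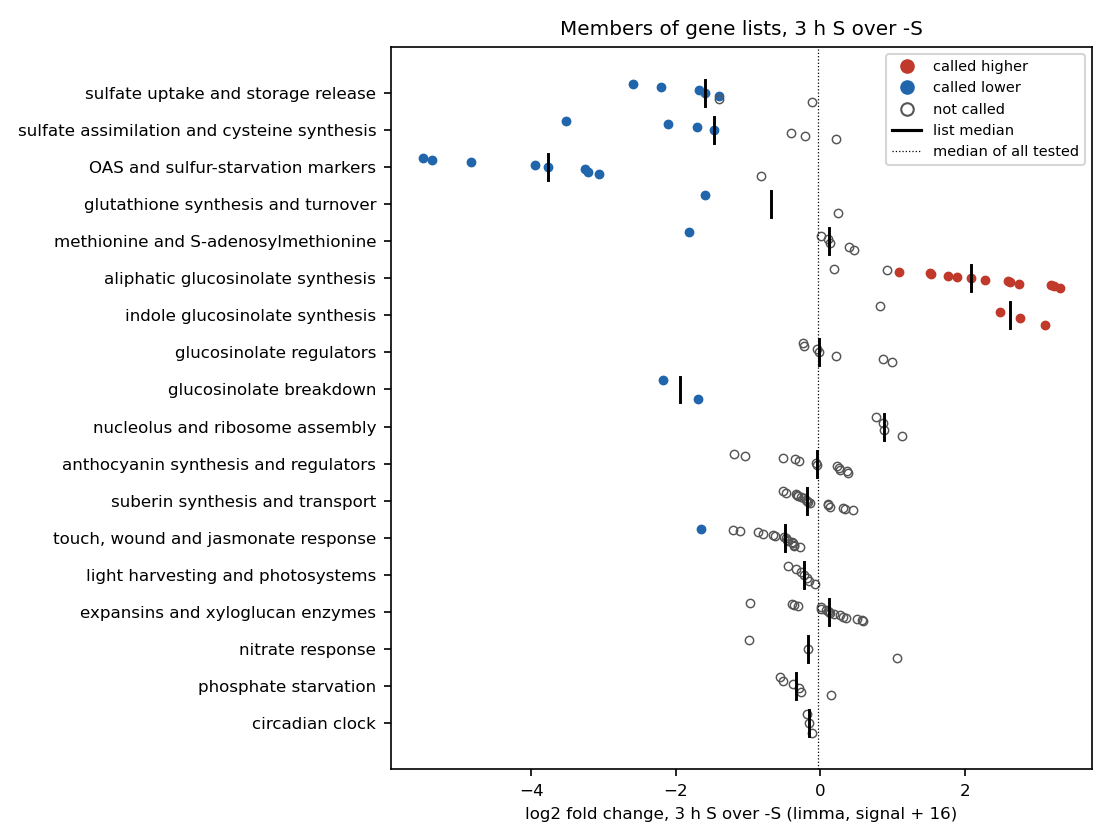
Log2 fold change of 3 h S over -S (x axis) for the tested members of 18 gene lists, filled where called higher (red) or lower (blue) and open where not called; thick bars are list medians and the dotted line is the median of all probe sets tested, -0.03. Glucosinolate synthesis lies to the right, sulfate uptake, assimilation and starvation markers to the left, and suberin and anthocyanin genes around 0.

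In suberin and anthocyanin genes no change was called at 3 h, which in this design does not show that none took place. Suberin synthesis and transport had 8 of 17 tested members called higher in -S over FN (median 1.57), against 0.875% of all probe sets tested. Only 1 of the 17 was named by the platform annotation. The other names came from the study's tables, several of which list genes by their rise under starvation on these same arrays. The direction of this count therefore has no independent support. In 3 h S over -S none was called by limma (1 at an unadjusted p under 0.05, none by the methods' test after adjustment), with a median of -0.18 and a range of -0.51 to 0.46. ABCG6, a half-size transporter needed for suberin, had 245.0 and 195.1 in 3 h S, 351.9 and 218.3 in -S and 16.7 and 37.6 in FN (-0.32 ± 0.31 over -S, adjusted p = 0.72, limma). KCS2, which elongates fatty acids for suberin, had 241.2 and 135.7 in 3 h S, 382.8 and 182.4 in -S and 29.1 and 39.0 in FN (-0.51 ± 0.29, adjusted p = 0.51, limma). In both genes the 3 h S signals were lower than the -S signals within each experiment and far above those of FN. Of 12 tested anthocyanin genes 1 had been called higher in starvation, and in 3 h S over -S the median was -0.05 with none called by limma (1 at an unadjusted p under 0.05, none by the methods' test after adjustment). PAP1 (MYB75), which switches on anthocyanin genes and was the member called in starvation, had 159.3 and 43.7 in 3 h S, 379.3 and 95.7 in -S and 5.8 and 5.1 in FN (-1.04 ± 0.45, adjusted p = 0.37, limma); experiment 1 was several-fold the higher in both conditions, so that these overlapped, although 3 h S was the lower within each experiment.

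The list of touch, wound and jasmonate genes was set beside these because every 3 h S flask had been opened. All 16 tested members were negative with a median of -0.49, 1 was called lower and 6 were lower at an unadjusted p under 0.05 (limma). Over all 17138 probe sets tested, 9252 were negative, the median was -0.03 and 5.79% were lower at that unadjusted limit. The called member was AOC1, an allene oxide cyclase of jasmonate synthesis, with 501.5 and 731.9 in 3 h S and 1941.6 and 1921.5 in -S (-1.65 ± 0.18, adjusted p = 0.011, limma); its probe set may detect related genes. ZAT10, a zinc finger protein raised by many stresses, had 55.2 and 47.1 in 3 h S and 154.5 and 106.2 in -S (-1.11 ± 0.27, adjusted p = 0.13, limma). No member of this list was higher, and the part of handling in any result was not tested. Of the 16 members 2 were named by the platform annotation, and most of the others entered through a table of starvation-raised genes, which favours a fall from -S.

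In lists of processes less tied to sulfur, limma called nothing in 3 h S over -S, with none by the methods' test after adjustment. Light harvesting had a median of -0.22 (7 tested, 0 at an unadjusted p under 0.05), expansins and xyloglucan enzymes 0.12 (17 tested, 2 at an unadjusted p under 0.05), phosphate starvation -0.33 (6 tested, 0), nitrate response -0.17 (3 tested, 1), circadian clock -0.16 (3 tested, 0), low-oxygen response 0.19 (5 tested, 1), heat shock 0.15 (5 tested, 0), cell cycle 0.08 (1 tested, 0), auxin response -0.11 (5 tested, 0), iron 0.69 (4 tested, 2) and housekeeping 0.11 (2 tested, 0). In the sugar starvation list the 1 called member of 5 tested was BGLU30, given above, and the median was -0.04. Among type-A response regulators, which damp cytokinin signalling, ARR6 had 157.2 and 96.6 in 3 h S and 40.3 and 54.8 in -S (1.15 ± 0.26, adjusted p = 0.12, limma) and ARR5 had 58.9 and 99.4 in 3 h S and 37.1 and 54.8 in -S (0.60 ± 0.15, adjusted p = 0.14, limma). Neither passed the threshold. Both did not overlap between conditions, as also held for 18% of all tested probe sets with 3 h S above -S. ARR16, the third tested member, had 72.6 and 70.8 in 3 h S and 81.1 and 53.2 in -S (0.10 ± 0.20), with overlapping groups, and had been called lower in starvation (FN 263.3 and 175.7). LOG5, which activates cytokinins, had 25.1 and 20.6 in 3 h S and 128.0 and 52.3 in -S (-1.35 ± 0.27, adjusted p = 0.084, limma).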

How the data were processed

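Total RNA of whole seedlings was hybridised to ATH1 arrays, 1 array per condition and experiment. The deposited values are intensities: the authors' MAS version 5.0 signals, linear and scaled per array; their scaling target was not found in the sources used here. The experiments are biological replicates according to the study, and whether flasks were pooled is not stated, so p-values measure the spread between these arrays. The study describes starvation as more severe in experiment 1, with lower sulfate and glutathione under -S, and reports that nitrate also fell there. Taken by itself and with no floor, experiment 1 had 2101 probe sets past 2-fold lower in 3 h S over -S, and experiment 2 had 963. Past 2-fold higher they had 1099 and 1005. The floor of an array is the signal at the share of probe sets that the study lists as absent for it. Probe sets at or above it on at least 2 arrays (17138) were tested with limma 3.58.1 in R 4.3.3 (lmFit, eBayes without trend) on log2(signal + 16) of all 8 arrays, with condition terms and an experiment block; the fit had 3 residual and 4 prior degrees of freedom. The offset understates changes of dim probe sets. The block follows the study, which forms ratios within experiments. The experiment difference of -S and of 3 h S correlated across probe sets at r = 0.71. That of FN was shared less, at r = 0.31 with -S, 0.22 with 3 h S and 0.08 with 30' S. The fit nevertheless gives all 8 arrays the same block, and with 2 pairs this remains a choice. P-values were adjusted over all probe sets tested (Benjamini-Hochberg), and the script was tested on simulated data.

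Where a probe set was below the floor on both arrays of a condition, the fold is a bound: the mean log2 signal of the brighter condition against the floor. Probe sets with 1 gene were named through the platform annotation (13513) or the study's tables (177 and, in a longer table, 630); 503 had several genes and the rest are unnamed here. Names used are the 15 largest rises and falls, the 10 largest of each that starvation did not change, list members and transcription factors; AT1G03020, AT1G36380, AT1G75280, AT1G79150, AT2G15830, AT2G27830, AT3G56200, AT5G40670, ADC2, DHAR2, GSTU27, MSRB5, PPR596, SIP1;2 and YAO were added after their values were seen. The members and lists were chosen with earlier results of these data known. Lists held 636 entries, of which 203 had a probe set. Alternatives changed the block, offset, filter, normalization, trend and arrays; the methods' test (heteroscedastic, two-sided) was run on the same values. Python 3.11.15 with pandas 2.3.3, numpy 2.4.6 and matplotlib 3.10.9 gave the tables and figures.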

Additional observations from a re-analysis of the deposited data

How the results depend on the processing

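The calls were not stable. Of 58 called genes followed through the alternatives none changed sign. Their choice favours this, since no called probe set had overlapping 3 h S and -S signals. SULTR3;4, which was not called, ranged between -0.47 and 0.24 when 1 array was left out, and was positive without -S replicate 1. Counts are given as higher and lower, then higher and lower among probe sets not changed by starvation, against 126, 56, 84 and 4 as reported. Without the replicate block they were 44, 33, 18 and 0, and of the 58 genes 46 kept the call; without an offset 30, 16, 9 and 0; with an offset of 64, 228, 80, 170 and 17; with no filter on low signals 53, 27, 29 and 1. Quantile normalization gave 8 unchanged falls. The 4 arrays alone gave 733, 334, 533 and 147, and without the FN arrays 800, 395, 596 and 197. The 4 arrays without the block, an alternative added after seeing the data, gave 11, 19, 0 and 0. Leaving out 1 array gave 3 to 800 higher and 3 to 395 lower, and 0 to 593 and 0 to 194 unchanged by starvation; the high ends are the fits without an FN array, the low ends those without 3 h S replicate 2. The methods' test gave 401 higher and 305 lower unadjusted, and 0, 0, 0 and 0 after adjustment. Raw ratios past 2-fold numbered 163 higher and 86 lower, 258 and 369 with no floor, and 33 and 47 past 3-fold. The other counts stayed within 1.5 times. The cause of these shifts was not tested. Signals near the floor limit what low transcripts can show.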
